A study of Mus musculus with 4 samples.

Results

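The MHC class I pathway was described in mouse embryonic fibroblasts (MEFs) through 10 genes of 31562 genes on the array. The genes were H2-K1, H2-D1, B2m, Tap1, Tap2, Tapbp, Psmb8, Psmb9, Psmb10 and Erap1, taken by name from the array's own annotation. They were represented by 11 probes and 29 spots on each array, because H2-K1 had a pair of probes and the probes of Tap1 and one of H2-K1 were spotted 10 times. The groups were p53+/+ (wild-type, WT) MEFs without an agent, WT MEFs with doxorubicin, p53-/- MEFs without an agent and p53-/- MEFs with doxorubicin, with 1 array each. Doxorubicin is a DNA-damaging drug that traps topoisomerase on DNA. Its dose and time for the arrays, the strain of the MEFs, which sets their class I alleles, and the number of embryos are not given in the sources used here. The comparisons ask how these genes differed after doxorubicin in each genotype, and whether the genotypes differed without and with the drug.

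MHC class I molecules display short peptides from inside the cell to cytotoxic T cells. Proteasomes cut cytosolic proteins, the TAP transporter moves the peptides into the endoplasmic reticulum, an aminopeptidase trims them, and a loading complex places them on a heavy chain that is bound to beta-2-microglobulin. Fibroblasts carry low amounts of this machinery at rest, and interferons raise most of its genes together, including immunoproteasome subunits that replace the constitutive catalytic subunits.

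A level is given here as a relative signal, the background-subtracted intensity of a probe divided by the 75th percentile of its array, and levels are compared between arrays for 1 probe at a time. These percentiles were signals of 2074 and 1819 in WT MEFs without and with the drug, and of 1881 and 2421 in p53-/- MEFs without and with it. Values for the 4 arrays are given in this order throughout. With 1 array per group there was no replicate check and no test. Across 240 probes with repeat spots, a log2 ratio of 2 arrays had a technical SD of 0.11, and the error given by the scanner software for the ratio of a bright spot was 0.20 on the log2 scale. All arrays were on 1 slide, so the place on the slide and the condition cannot be told apart. In bulk RNA, fewer cells that express a gene and less RNA per cell cannot be told apart either. The Trp53 probe had signals of 1228, 3442, 442 and 543, lower in the p53-/- MEFs under both conditions. All 12 fibroblast markers listed were well above background on all 4 arrays. Of 16 leukocyte markers, 9 to 11 were well above background, with a summed relative signal of 17.6, 25.02, 19.7 and 16.9 that was highest in doxorubicin-treated WT MEFs. The pan-leukocyte gene Ptprc stayed below the brightest negative control spot of each array, and Cd8a, Cd79a and Ncr1 were not well above background on any array. Other markers of the list were bright on all 4 arrays. Itgam, an integrin of myeloid cells, had signals of 26264 to 31691 and made up most of the summed signal, Csf1r had 2739 to 5530, Cd4 had 1999 to 2600 and Cd3e had 701 to 998.

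In WT MEFs, 4 of the 10 genes were at least 2-fold higher after doxorubicin, namely the heavy chains H2-K1 and H2-D1, the transporter subunit Tap1 and the immunoproteasome subunit Psmb9. Over all 17471 genes measured in this comparison, 11.0% were at least 2-fold higher. No gene of the 10 was at least 2-fold lower, against 10.4% of all measured genes. In p53-/- MEFs, 7 of the 9 genes that could be measured on both arrays were at least 2-fold higher, against 9.26% of 16919 measured genes. These were H2-K1, H2-D1, Tap2, Tapbp, Psmb8, Psmb9 and Psmb10, and Tap1 was higher by its lower limit. None was at least 2-fold lower, against 6.90% of all measured genes. The median log2 ratio of the members measured was 0.81 in WT and 2.37 in p53-/- MEFs, where the medians of all measured genes were 0.01 and 0.00. Scaling to the array median changed the split of all genes, from 1926 higher and 1822 lower to 1318 and 2785 in WT, and from 1566 and 1167 to 954 and 2095 in p53-/- MEFs. B2m, with a log2 ratio of 0.997 in p53-/- MEFs, lay just below the 2-fold limit, and Tap2, with 1.03, lay just above it.

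**Figure D1:**
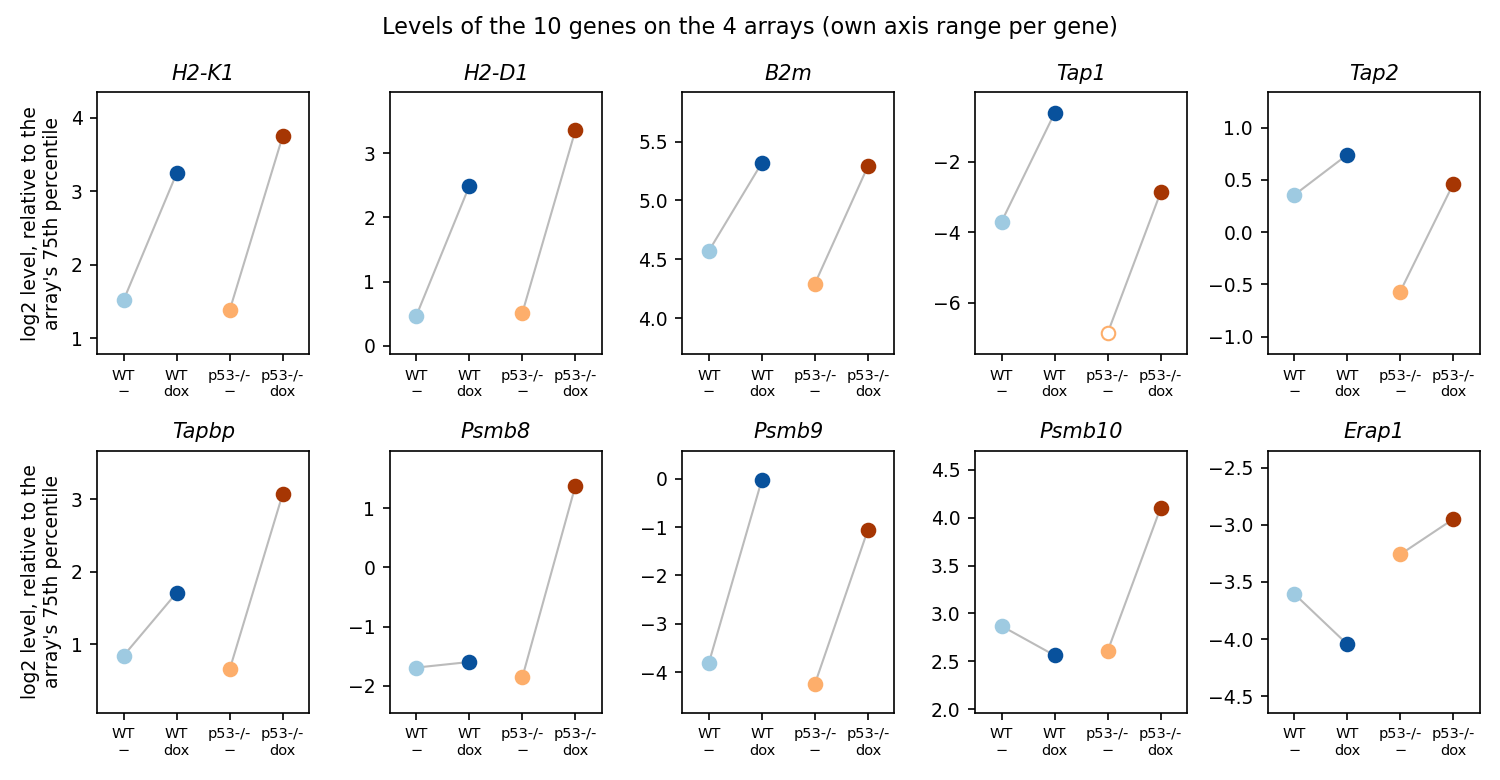
Log2 level of each of the 10 genes (vertical axis, log2 of the signal relative to the array's 75th percentile, own range per gene) on the 4 arrays (horizontal axis; dox, doxorubicin), with grey lines joining the arrays of a genotype and an open point for a probe not well above background. Psmb8 and Psmb10 stand above their other arrays on 1 array only, with relative signals of 2.60 and 17.2 in doxorubicin-treated p53-/- MEFs. Psmb10 is bright on the other arrays too, at 5.90 to 7.30. H2-K1 and H2-D1 are higher on both doxorubicin arrays than on the untreated ones.

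The classical heavy chains H2-K1 and H2-D1, which hold the peptide, were higher after doxorubicin in both genotypes. The relative signals of H2-K1 were 2.88, 9.50, 2.61 and 13.5. Both doxorubicin arrays lay above both untreated arrays, and the untreated arrays differed by a log2 value of -0.14 (p53-/- over WT), which is inside the software error of a ratio. The log2 ratio of doxorubicin over untreated was 1.72 in WT and 2.37 in p53-/- MEFs, a 3.30-fold and a 5.16-fold rise. The second H2-K1 probe, which lies at chr17:34133984-34134043 (mm9, minus strand), had relative signals of 0.963, 2.83, 0.831 and 4.72. Its log2 ratios were 1.55 and 2.51, so the probes of the gene gave the same order of the arrays. H2-D1 had relative signals of 1.38, 5.62, 1.42 and 10.2. The untreated arrays were level, with a log2 difference of 0.05, and the doxorubicin arrays stood apart from them and from each other. Its log2 ratio was 2.03 in WT and 2.85 in p53-/- MEFs, and only 111 of 16919 measured genes had a larger ratio in p53-/- MEFs.

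The spots of the brighter H2-K1 probe (chr17:34133055-34133114, mm9, minus strand) showed how tight the measurement was within an array. Its 10 spots ran from signals of 5734 to 6151, 15565 to 17968, 4464 to 5229 and 29855 to 34154. The spots of the doxorubicin arrays did not overlap with those of the untreated arrays, nor did the 4 arrays overlap with each other in raw signal. These are spots of 1 sample per group and measure no biological spread.

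**Figure D2:**
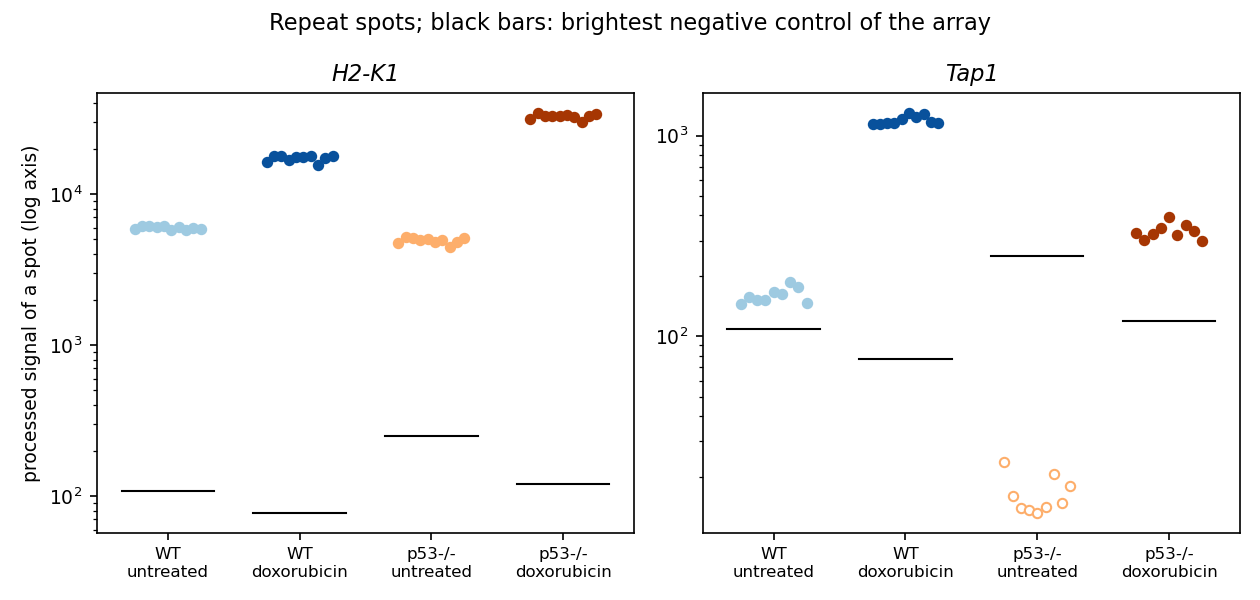
Processed signal (log axis) of each repeat spot of the H2-K1 and Tap1 probes on the 4 arrays, with open points for spots not well above background and a black bar at the brightest negative control spot of the array. The H2-K1 spots of an array sit close together, and the 9 Tap1 spots of untreated p53-/- MEFs, at signals of 13.2 to 23.6, lie below a negative control of 250.1.

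Class I heavy chain genes carry an upstream enhancer with an NF-kB site. Promoter windows from 250 bases before to 50 bases after the start were taken from RefSeq (GRCm38.p6) for 9 of the 10 genes, and Tap2 was not among them. The NF-kB site was found in the windows of H2-K1, H2-D1 and B2m, and in 8.46% of all 32851 windows. With the start counted as 0, it lay at positions -111 to -101 in H2-K1 and at -171 to -161 in H2-D1. The site is a near palindrome that matched on both strands at a pair of overlapping positions. The 90 bases around it are shown for both genes, with 87 identical bases and 3 that differ. Whether the site had a part in the values of these genes was not tested. Capitals mark the NF-kB site. The coordinates are chr17:34000409-34000498 (minus strand) for H2-K1 and chr17:35262883-35262972 (plus strand) for H2-D1, in GRCm38.p6.
H2-K1: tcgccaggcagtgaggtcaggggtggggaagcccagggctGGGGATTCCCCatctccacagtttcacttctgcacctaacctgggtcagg
H2-D1: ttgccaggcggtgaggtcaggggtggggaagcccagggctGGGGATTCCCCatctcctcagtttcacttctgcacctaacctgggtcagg

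B2m encodes beta-2-microglobulin, the light chain that every class I heavy chain needs. Its relative signals were 23.8, 39.96, 19.6 and 39.2, so that the doxorubicin arrays of both genotypes lay close to each other, with a log2 difference of -0.03 between them. The log2 ratio of doxorubicin over untreated was 0.75 in WT and 0.997 in p53-/- MEFs, under 2-fold in both and smaller than the ratios of both heavy chains. With quantile normalization the p53-/- ratio of B2m was 1.07, past the limit. The 250 bases before the B2m start are shown because they hold letters of an interferon element next to an NF-kB site. The interferon-stimulated response element core, GAAANNGAA on either strand, lay at positions -139 to -131 and the NF-kB site at -126 to -117. Capitals mark these matches, at chr2:122147437-122147686 (GRCm38.p6, plus strand). The core was found in 8.56% of all windows.
B2m: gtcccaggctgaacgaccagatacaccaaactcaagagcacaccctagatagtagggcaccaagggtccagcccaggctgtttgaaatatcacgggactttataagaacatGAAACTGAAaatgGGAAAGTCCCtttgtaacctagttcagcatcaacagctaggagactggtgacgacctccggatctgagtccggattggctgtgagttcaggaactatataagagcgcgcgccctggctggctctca

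Tap1 and Tap2 are the subunits of the transporter that brings peptides into the endoplasmic reticulum. Tap1 had relative signals of 0.0771, 0.655, 0.00856 and 0.137. It was highest in doxorubicin-treated WT MEFs, and in untreated p53-/- MEFs 0 of the 9 spots used were well above background. In WT MEFs the log2 ratio of doxorubicin over untreated was 3.09, an 8.49-fold rise. In p53-/- MEFs Tap1 was at least 4.46-fold higher after doxorubicin, measured against the lowest signal that counted as well above background on the untreated array (57.9). Set against that array's brightest negative control spot instead (a signal of 250.1, where 3 of 153 negative controls were over 150), the rise would be 1.03-fold. Without doxorubicin, Tap1 was at least 2.50-fold lower in p53-/- than in WT MEFs by the first limit, and the second limit allows no fold. With doxorubicin, where both arrays measured it, Tap1 was 4.77-fold lower in p53-/- MEFs, with a log2 value of -2.25.

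The other subunit, Tap2, was well above background on all 4 arrays. Its relative signals were 1.28, 1.67, 0.675 and 1.38. The untreated p53-/- array was the low one, and the other arrays lay within a narrow range. The log2 ratio of doxorubicin over untreated was 0.39 in WT and 1.03 in p53-/- MEFs, and under scaling to the array median the latter was 0.73, below the 2-fold limit. Without doxorubicin the p53-/- over WT log2 ratio was -0.92, lower than that of 16672 of 17244 measured genes.

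Tapbp encodes tapasin, which holds the empty heavy chain at the transporter. Its relative signals were 1.79, 3.27, 1.57 and 8.43, with the doxorubicin-treated p53-/- array above all others. The log2 ratio was 0.87 in WT and 2.42 in p53-/- MEFs, and the difference of the ratios (p53-/- minus WT) was 1.55. Erap1, the aminopeptidase that trims peptides in the endoplasmic reticulum, had relative signals of 0.0823, 0.0606, 0.104 and 0.129. These are dim values, and the untreated p53-/- signal of 196 lay below the brightest negative control of its array. The log2 ratio of Erap1 was -0.44 in WT and 0.31 in p53-/- MEFs, with software errors of 0.29 and 0.25. With doxorubicin, Erap1 was 2.14-fold higher in p53-/- than in WT MEFs, but 0.62 on the log2 scale after another background correction (normexp), under 2-fold.

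The immunoproteasome subunits Psmb8, Psmb9 and Psmb10 take the place of constitutive catalytic subunits and change which peptides are made. They did not move as one. Psmb9 had relative signals of 0.0716, 0.990, 0.0529 and 0.483, high on both doxorubicin arrays. Its log2 ratio was 3.79 in WT and 3.19 in p53-/- MEFs, a 13.8-fold and a 9.12-fold rise. The untreated p53-/- signal of 99.5 was below the brightest negative control of its array. Measured against that control, the rise in p53-/- MEFs was 3.63-fold.

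Psmb8 had relative signals of 0.309, 0.330, 0.276 and 2.60. The first 3 arrays lay close together, and only the doxorubicin-treated p53-/- array stood out. The log2 ratio was 0.09 in WT and 3.24 in p53-/- MEFs, the latter a 9.42-fold rise. The WT ratio was -0.18 with scaling to the array median, so its sign is not settled. Psmb10 had relative signals of 7.30, 5.90, 6.08 and 17.2. Again the doxorubicin-treated p53-/- array was the high one. The log2 ratio was -0.31 in WT and 1.499 in p53-/- MEFs. With doxorubicin, Psmb8 was 7.87-fold and Psmb10 2.91-fold higher in p53-/- than in WT MEFs, whereas Psmb9 was 2.05-fold lower. With normexp the log2 value of Psmb9 was -0.99, just under 2-fold.

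Psmb9 and Tap1 start back to back on chromosome 17 and are known to share a promoter. These genes were also the only members at least 2-fold lower in p53-/- than in WT MEFs with doxorubicin, a call that Psmb9 lost with normexp, and had the largest WT ratios of the 10. The 225 bases between their RefSeq starts are shown, at chr17:34187331-34187555 (GRCm38.p6, plus strand, in the direction of Tap1). Whether this stretch had a part in the values of these genes was not tested. The windows of Tap1 and Psmb9 held none of the motifs searched, which says only that these letters are not in the windows.
Psmb9 to Tap1: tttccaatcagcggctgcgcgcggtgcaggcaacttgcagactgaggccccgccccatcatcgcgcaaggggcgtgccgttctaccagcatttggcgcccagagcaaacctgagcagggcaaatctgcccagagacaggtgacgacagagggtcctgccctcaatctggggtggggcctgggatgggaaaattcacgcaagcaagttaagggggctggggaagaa

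Psmb8 starts beyond Tap1, on the side away from Psmb9, and its window held 1 gamma-activated sequence, TTCNNNGAA on either strand, at positions -97 to -89. This motif was found in 8.30% of all windows. The 250 bases before the Psmb8 start are shown for comparison with the stretch above, with the match in capitals, at chr17:34197945-34198194 (GRCm38.p6, plus strand).
Psmb8: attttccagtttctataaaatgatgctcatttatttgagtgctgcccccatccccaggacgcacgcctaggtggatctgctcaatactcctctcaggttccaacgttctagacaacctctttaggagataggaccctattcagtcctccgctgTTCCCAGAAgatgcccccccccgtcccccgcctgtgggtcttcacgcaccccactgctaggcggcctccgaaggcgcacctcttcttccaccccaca

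In the other windows, the interferon core was found at 2 overlapping positions at the start of Erap1, which also held 1 p53 half-site, at positions -79 to -70. The half-site was found in 8.36% of all windows. The windows of Tapbp and Psmb10 held no match. A match describes letters and not a bound site. In any window, those of H2-K1 and H2-D1 included, a missing exact match does not mean that no variant of an element is there.

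The probes that measured these 3 neighbours are shown because their values rest on these letters, and each is 60 bases long. They lie at chr17:34330854-34330913 (plus strand) for Tap1, chr17:34337771-34337830 (plus strand) for Psmb8 and chr17:34319174-34319233 (minus strand) for Psmb9, in mm9.
Tap1 probe: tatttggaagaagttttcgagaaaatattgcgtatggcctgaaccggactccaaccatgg
Psmb8 probe: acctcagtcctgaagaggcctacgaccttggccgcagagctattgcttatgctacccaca
Psmb9 probe: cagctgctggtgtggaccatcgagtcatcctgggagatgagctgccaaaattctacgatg
Other probes were compared, without gaps, only if they shared 12 bases in a row and overlapped over at least 40 bases. Among those compared, the closest matched these 3 probes at no more than 22 bases. Probes outside these limits were not scored. The closest match found in this way for any member's probe was that of the second H2-K1 probe. It had 44 of 54 compared bases in common with a probe annotated to transcript ENSMUST00000116010. The class I genes are alike in sequence, and signal from one gene on the probe of another cannot be told apart here.

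Without doxorubicin, 0 of the 9 members measured were at least 2-fold higher in p53-/- MEFs, against 2.15% of 17244 measured genes, and 0 were at least 2-fold lower, against 2.62%. These shares are so small that the counts say nothing particular to the members. Tap1 was lower by its limit. The log2 ratios (p53-/- over WT) ran from -0.92 for Tap2 to 0.34 for Erap1, and 7 of the 9 were below 0. With doxorubicin the members split. Tapbp, Psmb8, Psmb10 and Erap1 were at least 2-fold higher in p53-/- than in WT MEFs, where 11.9% of 17854 measured genes were. Tap1 and Psmb9 were at least 2-fold lower, where 10.3% of the measured genes were. H2-K1 and H2-D1 had log2 ratios of 0.50 and 0.87 in the same comparison, B2m one of -0.03 and Tap2 one of -0.28. The sign of the B2m value turned with quantile normalization, to 0.21.

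The difference of the log2 ratios of doxorubicin over untreated (p53-/- minus WT) was at least 1 for Tapbp, Psmb8 and Psmb10, at 1.55, 3.14 and 1.81. Over all 16481 genes measured on all 4 arrays, 9.86% reached such a difference, and 115 of them had a larger one than Psmb8. No member had a difference of -1 or less, against 8.37% of all genes measured. The value of Psmb9 was -0.60, that of B2m was 0.25, and the others lay between 0.64 and 0.82. These ratios share no array between the genotypes, but each rests on 1 untreated and 1 treated array.

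**Figure D3:**
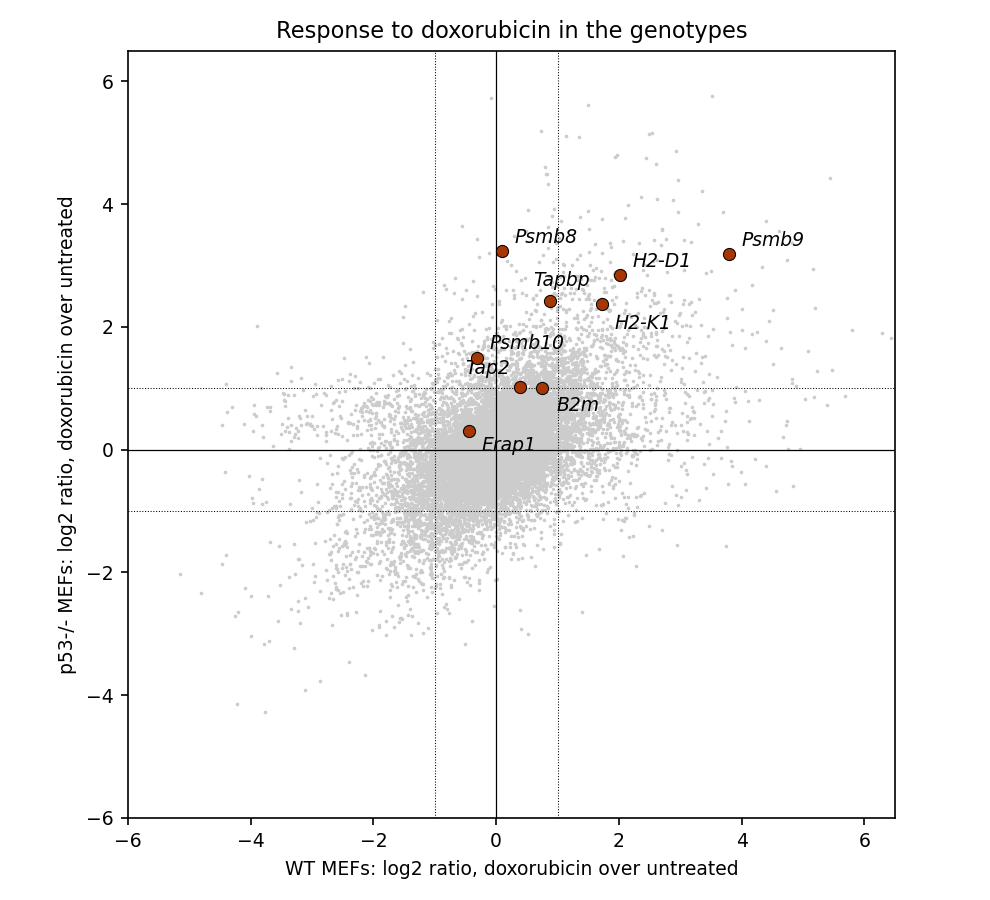
Log2 ratio of doxorubicin over untreated in WT (horizontal) and p53-/- MEFs (vertical) for genes measured on all 4 arrays (grey; 3 of the 16481 lie outside the axes), with 9 of the 10 members in brown and dotted lines at 2-fold. Psmb8 sits at 0.09 and 3.24, away from Psmb9 at 3.79 and 3.19, and Tap1 is missing because it was not measured on the untreated p53-/- array.

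Of the 10 genes, 7 lie on chromosome 17. Within 200 kb of the Tap1 probe, 20 genes had a probe well above background on at least 1 array, of which 5 were members. Psmb9, Tap1, Psmb8 and Tap2 lay at -11.7, 0, 6.92 and 22.3 kb, yet had WT log2 ratios of 3.79, 3.09, 0.09 and 0.39. Of the 15 others, 12 were measured in WT MEFs, of which 4 were at least 2-fold higher and 0 lower after doxorubicin. The shares of all measured genes there were 11.0% and 10.4%. In p53-/- MEFs 11 were measured, of which 4 were at least 2-fold higher and 1 lower, against 9.26% and 6.90% of all measured genes. The count lower lies near its share. Genes that lie close to each other, members or not, could thus have unlike ratios.

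**Figure D4:**
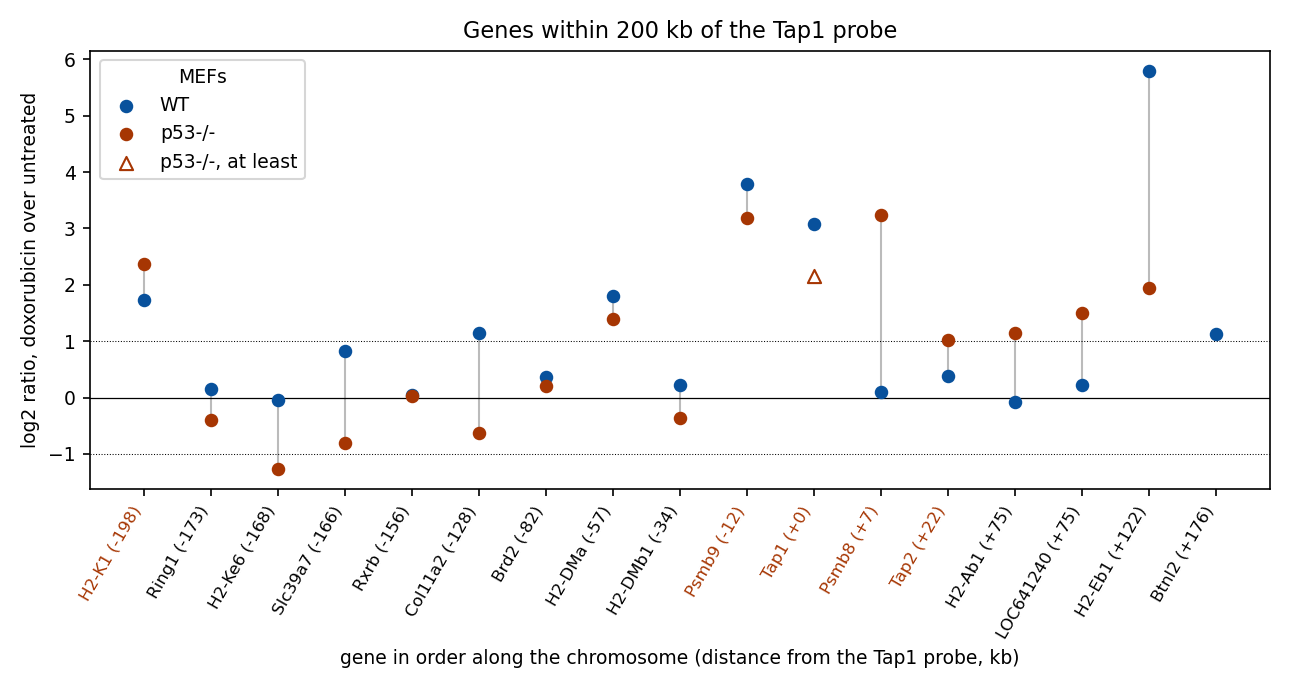
Log2 ratio of doxorubicin over untreated (vertical axis) in WT and p53-/- MEFs for the genes within 200 kb of the Tap1 probe that were measured in at least 1 genotype, in their order along the chromosome with the distance in kb (members in brown letters, dotted lines at 2-fold). The triangle is the lower limit for Tap1 in p53-/- MEFs, at 2.16, and Psmb8, 6.92 kb from Tap1, has the widest gap between genotypes among the members.

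Other class I genes were looked at as a list of 20, of which 18 had a probe and 15 were measured in each comparison. In WT MEFs 5 were at least 2-fold higher and 2 lower after doxorubicin, and in p53-/- MEFs 10 were higher and 1 lower. Of all measured genes, 11.0% were higher and 10.4% lower in WT MEFs, and 9.26% and 6.90% in p53-/- MEFs. The counts lower lie near these shares. The medians of the list were 0.66 and 1.74. H2-Q6, H2-Q7 and H2-Q8, nonclassical heavy chains of the Q region, had WT log2 ratios of 1.55, 1.93 and 3.18 and p53-/- log2 ratios of 2.76, 2.84 and 3.38. All 3, like H2-K1 and H2-D1, were at least 2-fold higher in both genotypes, although the untreated p53-/- signal of H2-Q8 lay below the brightest negative control. H2-M2, another nonclassical heavy chain, was well above background on 1 array only, that of p53-/- MEFs with the drug, where it was at least 4.77-fold higher than without the drug, or 1.10-fold against the negative control signal of 250.1 given above.

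The genes whose pattern over the 4 arrays was nearest to the median pattern of the members were sought among 16481 genes, by the Euclidean distance between log2 levels centred on their mean. The nearest 5 that are not members were H2-Q5, the transcripts ENSMUST00000077662 and ENSMUST00000054666, 1700080G18Rik and LOC100047388, at distances of 0.110 to 0.187. H2-Q5 had a WT log2 ratio of 1.14 and a p53-/- log2 ratio of 2.28. Among the members, the distance to their median pattern ran from 0.417 for Tapbp and 0.432 for H2-K1 to 2.24 for Psmb9, so the median stands for some of them only.

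The remaining steps of the pathway were taken as lists. Of 14 genes for chaperones of folding and loading, the proteasome activator PA28 and other peptidases, 0 were at least 2-fold higher and 1 lower in WT MEFs, and 2 were higher and 0 lower in p53-/- MEFs. The medians were 0.10 and -0.14, and these counts lie near the shares of all genes. Those shares were 11.0% higher and 10.4% lower in WT MEFs, and 9.26% and 6.90% in p53-/- MEFs. Tapbpl, a tapasin-like peptide editor, had a WT log2 ratio of -0.31 and a p53-/- log2 ratio of 1.61. Psme2, a subunit of PA28, had 0.78 and 1.21. Pdia3, the disulfide isomerase of the loading complex, had 0.24 and -0.63. The constitutive catalytic subunits Psmb5, Psmb6 and Psmb7 had WT log2 ratios of 0.15, 0.41 and 0.56 and p53-/- log2 ratios of 0.15, 0.30 and -0.28. All 3 stayed under 2-fold in both genotypes.

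**Figure D5:**
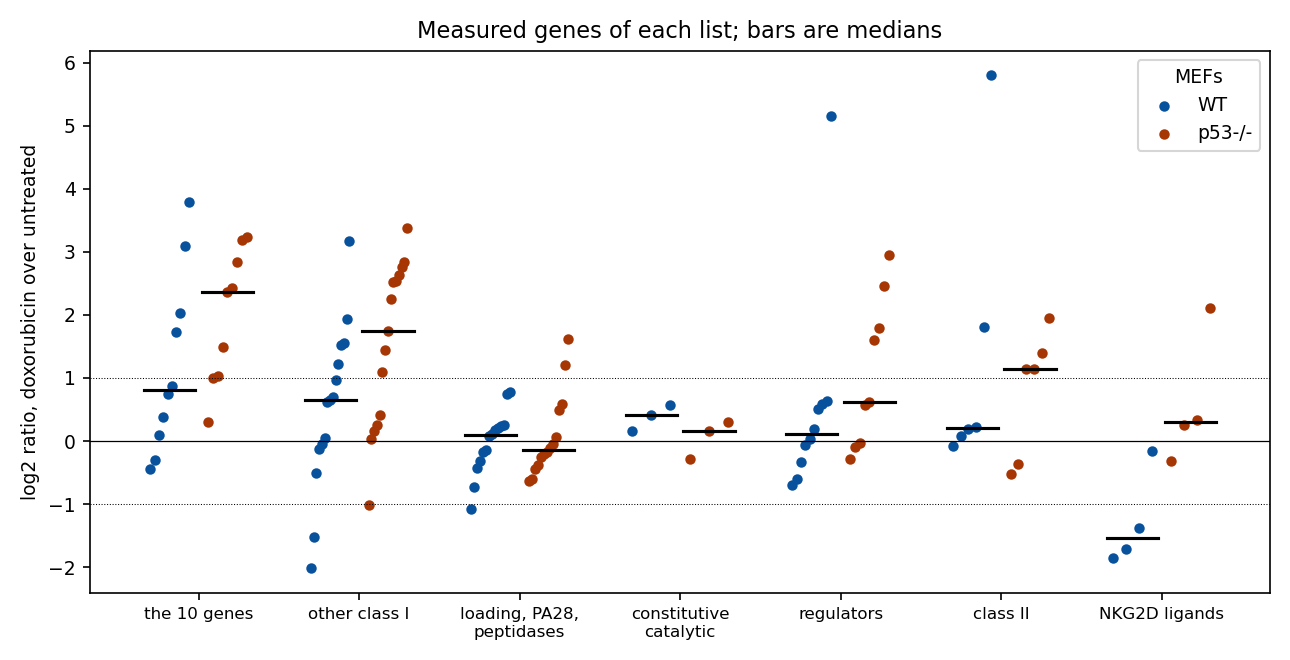
Log2 ratio of doxorubicin over untreated (vertical axis) for each measured gene of 7 gene lists (horizontal axis) in WT and p53-/- MEFs, with bars at the medians and dotted lines at 2-fold. The median of the members measured is 0.81 in WT (10 genes) and 2.37 in p53-/- MEFs (9 genes, without Tap1). The constitutive catalytic subunits lie between -0.28 and 0.56.

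Of 11 listed regulators, 10 were measured in WT MEFs, of which 1 was at least 2-fold higher and 0 lower. Among all measured genes 11.0% were higher and 10.4% lower there, so the WT count higher lies near that share. In p53-/- MEFs 9 regulators were measured, of which 4 were higher and 0 lower, against 9.26% and 6.90% of all measured genes. Nlrc5, the transactivator of class I genes, had signals of 65.2, 2047, 70.5 and 702 and a WT log2 ratio of 5.16 and a p53-/- log2 ratio of 2.95. Both untreated signals lay below the brightest negative controls, of 108 and 250.1, and against these Nlrc5 was 21.6-fold and 2.18-fold higher. Nlrc5 was thus higher on both doxorubicin arrays, and highest in WT MEFs with the drug. Irf1, an interferon regulatory factor, had log2 ratios of -0.70 and 1.61. Irf9 and Stat2, which act in type I interferon signalling, had 0.51 and 0.59 in WT and 1.79 and 2.45 in p53-/- MEFs. Irf1, Irf9 and Stat2 were thus at least 2-fold higher in p53-/- MEFs alone. Whether any regulator had a part in the class I values was not tested. Rfxap, Rfxank, Irf2, Rela and Nfkb1 stayed under 2-fold in both genotypes, between -0.60 and 0.64, and Rfx5 was not well above background on any array.

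The class II pathway, which marks professional antigen-presenting cells, was mostly dim. Of 10 genes, 6 or 7 were well above background, but 0 exceeded the brightest negative control on the untreated p53-/- array, with summed relative signals of 0.619, 5.85, 0.479 and 0.955. The high value in doxorubicin-treated WT MEFs came from H2-Eb1, a class II beta chain, which had signals of 184, 8970, 103 and 509 and log2 ratios of 5.80 and 1.94. Of the 6 class II genes measured, 2 were at least 2-fold higher in WT and 4 in p53-/- MEFs, with medians of 0.20 and 1.14. Over all measured genes, 11.0% were at least 2-fold higher in WT and 9.26% in p53-/- MEFs. H2-DMa had log2 ratios of 1.80 and 1.39, and Cd74 had 0.19 and 1.14. Against the negative control of the untreated p53-/- array, H2-Eb1, H2-DMa and Cd74 were 1.58-fold, 1.77-fold and 1.30-fold higher in p53-/- MEFs, all under 2-fold. H2-Aa, H2-DMb2 and H2-Oa were not well above background on any array. The part of other cells in the class I values was not tested.

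Ligands of the NKG2D receptor, class I-like proteins that alert natural killer cells, were mixed. Of 9 listed genes, 8 had a probe and 4 were measured in each genotype. Raet1b, Raet1c and Raet1e were measured in both, and the remaining gene was not the same in each. In WT MEFs 3 of the 4 were at least 2-fold lower after doxorubicin and 0 higher, and in p53-/- MEFs 0 were lower and 1 higher. Over all measured genes, 10.4% were lower and 11.0% higher in WT, and 6.90% and 9.26% in p53-/- MEFs. Raet1b, Raet1c and Raet1e had WT log2 ratios of -1.72, -1.37 and -1.86 and p53-/- log2 ratios of 0.34, -0.32 and 0.25. These 3 genes are alike in sequence, so their probes may not be independent. Ulbp1, a ligand of the same receptor, had signals of 92.2, 55.4, 267 and 1482, of which the WT values lay below the brightest negative controls. It was 4.31-fold higher after doxorubicin in p53-/- MEFs, the 1 called there, and with the drug at least 20.1-fold higher in p53-/- than in WT MEFs.

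Of the 12 fibroblast markers, 5 were at least 2-fold lower after doxorubicin in WT and 2 in p53-/- MEFs, and 0 were higher. For all lists in this paragraph, the shares of all measured genes were 10.4% lower and 11.0% higher in WT MEFs. In p53-/- MEFs they were 6.90% and 9.26%. Lum, Pdgfra and Pdgfrb had WT log2 ratios of -4.81, -3.36 and -2.44 and p53-/- log2 ratios of -2.34, -0.89 and -1.73. Of the leukocyte markers, 9 were measured in each genotype, and 1 was at least 2-fold higher in each, Cd14 in WT and S100a8 in p53-/- MEFs. S100a8 had a p53-/- log2 ratio of 1.64. Its untreated p53-/- signal of 109 lay below the brightest negative control of that array, 250.1. Cd14 had log2 ratios of 3.74 and 0.62, Aif1 had -0.65 and 0.68, and Adgre1 had 0.20 and 0.58. Of 7 reference genes, 1 was at least 2-fold higher in WT and 0 in p53-/- MEFs. Actb, Gapdh and Tbp stayed between -0.42 and 0.40. Whether these shifts had a part in the class I values was not tested.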

How the data were processed

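Cy3-labeled RNA, 200 ng of each sample, was measured on Agilent 1-color mouse arrays. Each condition had 1 array, and 1 slide held all of them. The deposited intensities are those the authors obtained with Feature Extraction (version 10.7.3.1), background-subtracted and not normalized between arrays. The series table deposited by the authors holds equal intensities. The flags for background and outliers (other values, 0 or 1) are deposited by the authors too. Probe positions are in mm9.

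Spots flagged as outliers were left out, the remaining log2 intensities were averaged per probe, and the array's 75th percentile was subtracted. Each gene was represented by the probe of highest mean level. A ratio counted as measured if both arrays had the probe well above background. If 1 array had, the other was set at its lowest signal well above background, or at the probe's own signal if higher, which gives a limit. Called means at least 2-fold. Gene names came from RefSeq (GRCm38.p6) by accession, symbol or synonym, and 9099 of the 39429 probes kept the name in the file.

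The 10 members and all lists were chosen with earlier results of these data known. Named genes were the members, the regulators, the constitutive subunits, the 3 genes of each other list with the largest absolute p53-/- ratio among those well above background on all 4 arrays, genes that came above background in p53-/- MEFs, and the 5 nearest in pattern. Ulbp1, further markers and the class II genes under background were chosen after their values were seen, as were the further genes with opposite signs in the closing section. Some listed genes are in the counts but are not reported here by name. The steps were tested on simulated arrays. Python 3.11.15 (numpy 2.4.6, pandas 2.3.3, matplotlib 3.10.9) and R 4.3.3 with limma 3.58.1 (normexp) were used. Alternatives are given below.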

Additional observations from a re-analysis of the deposited data

Results flagged for a closer look

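Some genes had log2 ratios of doxorubicin over untreated with opposite signs in the genotypes, each beyond the spread between repeat spots. That spread, an SD of 0.11 for a ratio, is smaller than the software error of 0.20 for a bright spot. The ratios of Psme3, 0.11 and -0.11, lay inside that error, as did the WT ratios of Npepps (0.17) and H2-T3 (-0.12). The differences (p53-/- minus WT) were 1.81 for Psmb10 (-0.31 in WT and 1.499 in p53-/- MEFs) and 0.75 for Erap1 among the members. Among the other class I genes, H2-M3, a nonclassical heavy chain, had 3.26 (-1.52 in WT and 1.74 in p53-/- MEFs), H2-T3 had 1.22 and Mr1 had 0.76. For loading, peptidases and proteasome, the differences were 1.93 for Tapbpl, -0.87 for Pdia3, -0.58 for Canx, -0.62 for Npepps, -0.22 for Psme3 and -0.84 for Psmb7. The regulator Irf1 had 2.31, the class II gene H2-DMb1 had -0.57, and the NKG2D ligands Raet1b and Raet1e had 2.06 and 2.11. Among the markers, Dcn had 1.60, Col1a1 had -0.50, Aif1 had 1.34 and Itgam had -0.83. With scaling to the array median, the signs no longer differed for Pdia3, Canx, Npepps, Psme3, H2-DMb1, Col1a1, Raet1e and Mr1. Those of Mr1 also no longer differed with quantile normalization, and those of H2-T3 with normexp and with the mean of a gene's probes. Dim signals limit some of these values. H2-T3 lay above the brightest negative control only in doxorubicin-treated p53-/- MEFs. H2-DMb1 lay below it on both p53-/- arrays, and Erap1 and Mr1 on the untreated p53-/- array. With 1 array per group these differences were not tested.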

How the results depend on the processing

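Scaling to the array median moved the all-gene median of doxorubicin over untreated to -0.27 (WT) and -0.30 (p53-/-), and the medians of the members were then 0.53 and 2.07. The number of members at least 2-fold higher stayed between 3 and 4 in WT and between 6 and 8 in p53-/- MEFs over the alternatives at 2-fold, and 0 were lower in each. The 3-fold limit gave 4 and 5, and the 1.5-fold limit 6 and 8. The p53-/- ratios of the 9 measured members stayed above 0 under the other scalings, background corrections and filters, Erap1 at 0.01 with array-median scaling. With dim spots set to the brightest negative control, an alternative chosen after seeing the data, Erap1 was at -0.04. For p53-/- over WT without doxorubicin, the count lower was 1 without a filter on dim probes (Tap1) and 1 at 1.5-fold (Tap2), in place of 0. With doxorubicin, the count higher was 1 at 3-fold in place of 4, and the count lower was 1 with normexp (Tap1, Psmb9 lost), 1 with background on all 4 arrays required and 1 at 3-fold, in place of 2. The difference of ratios gave 7 higher and 1 lower at 1.5-fold, in place of 3 and 0.

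For p53-/- MEFs with doxorubicin over untreated, the count of other class I genes higher was 6 above the brightest negative control in place of 10. The count for loading and peptidases was 1 with the array median and 1 at 3-fold in place of 2. The class II count was 2 with the array median, 2 with quantile normalization, 2 with normexp and 1 at 3-fold in place of 4. The NKG2D ligand count was 0 with background on all 4 arrays required in place of 1. The fibroblast count was 1 at 1.5-fold in place of 0. The leukocyte count was 2 with no filter, 0 with background on all 4 arrays required, 0 above the brightest negative control and 3 at 1.5-fold in place of 1.

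No paired analysis was possible because each group has 1 sample. Signal over background limits Tap1, Psmb9 and Erap1 on the untreated p53-/- array. The causes of these shifts were not tested.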
